A study of Anas platyrhynchos with 6 samples.

Results

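Intronic circular RNAs, called ciRNAs in the deposited table, made up 1583 of the 16631 circular RNAs listed in the breast muscle of duck embryos. They were taken as all entries whose type is given as ciRNA, whatever their level, beside 13043 exonic circRNAs and 2005 circular RNAs of intergenic sequence. The RNA came from 3 female Shanma duck embryos at embryonic day 13 (E13), when the label says that the myoblasts had not differentiated, and from 3 at embryonic day 19 (E19), when most had. The labels name no treatment or genetic change, and the groups share 1 breed and origin and differ in age. Each library was made from RNA that had been depleted of ribosomal RNA and treated with RNase R, an enzyme that degrades linear RNA. The counts are reads across the back-splice junction, the point where the end of a stretch of RNA is joined to its start. The 6 libraries held 43849 to 88916 such reads.

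In human cells, ciRNAs are known as introns that stay behind after splicing. A cut-out intron is first a lariat, a loop closed between the start of the intron and the branch point that lies a short way before the next exon, with a tail that is then lost. Most lariats are opened and degraded, and those that are not remain in the nucleus, where a few human examples are known to raise transcription of their own gene. An exonic circRNA forms in another way, by joining the end of an exon to the start of an earlier exon or of the same exon, so its ends are exon borders.

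The ciRNAs of this muscle came from 2 listings that differ in what they give for the intron. The first holds 741 ciRNAs with the number of an intron, and the second holds 842 ciRNAs (53.2%) for which the column only repeats the circle's own position. The numbered ciRNAs were short, with a median length of 458 bases (end minus start) and 80% between 189 and 1171 bases. The ciRNAs listed by position had a median of 5926.5 bases and reached 141032 bases. Only 6.75% of the numbered ciRNAs were longer than 1500 bases, against 78.4% of those listed by position. The reads were just as unequal. Of 15959 ciRNA reads the numbered ciRNAs held 1704 (10.7%), and those listed by position 14255 (89.3%). A numbered ciRNA could have a single read in a library, while those listed by position had at least 2 wherever they were seen, so the listings are described apart and each is set beside the exonic circRNAs of its own listing.

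**Figure D1:**
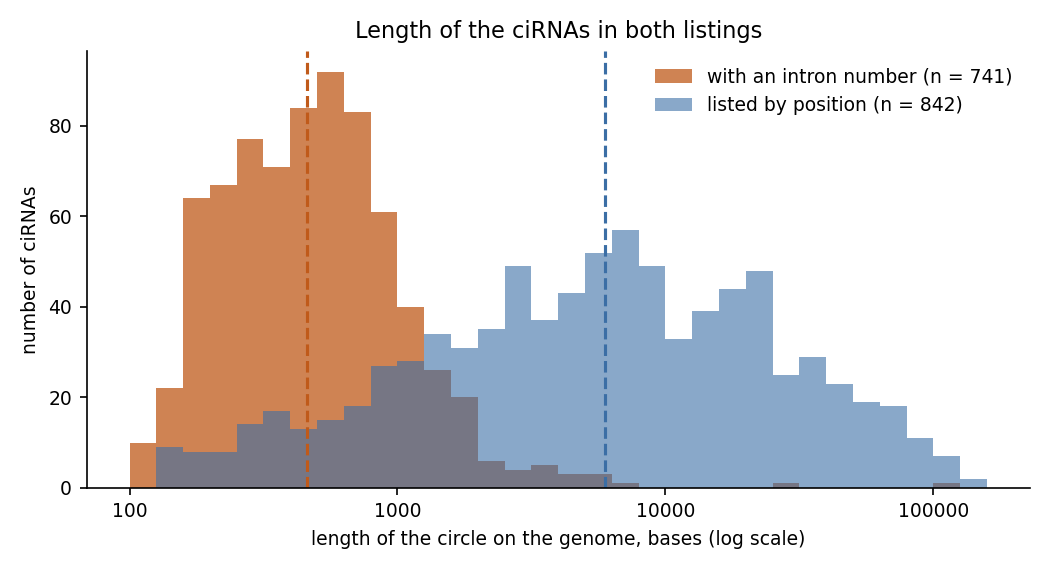
Number of ciRNAs (vertical axis) by length on the genome in bases (horizontal axis, log scale), for the 741 ciRNAs with an intron number (orange) and the 842 listed by position (blue). Dashed lines mark the medians, 458 and 5926.5 bases, and the orange bars lie mostly to the left of the blue ones.

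Where the exon before them was known, the numbered ciRNAs began at the start of an intron. The end of the exon before the intron was known from exonic circles of the same transcript for 54 of them. All 54 began 1 or 2 bases past that exon. The sources used here do not give the rule by which a circle gets an intron number. A start at this place may be a condition of the listing and is not read as a result. The start as listed was 1 base past the exon for the 26 on the plus strand and 2 bases past it for the 28 on the minus strand. Which intron base is the first of the circle depends on how the listing counts positions. If these starts are given 1 base too low, as was taken for the numbered exonic circles, both strands begin 2 bases past the exon. The far end varied more. For 37 numbered ciRNAs the start of the next exon was known, and 22 of them ended at most 42 bases before it. Of these, 15 ended 20 to 42 bases before the exon and 6 ended fewer than 5 bases before it. The other 15 ended 396 to 62867 bases short of the exon and so took in only part of the intron. They include the ciRNAs in intron 13 of NCAM1, which share 1 intron. None of the 741 contained a whole exonic circle, and this too may be a condition of the listing.

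The numbered ciRNAs lay in 682 introns, with a median intron number of 8 and a highest of 77. Intron 1 gave 39 (5.26%), fewer than the 60 each of introns 4 and 5. A total of 48 introns gave more than 1 circle, and in all 48 the circles shared their start. A common start follows if the listing requires circles to begin where their intron begins, so it is not read as a result. The far ends differed by a median of 4 bases, and by at most 10 bases in 30 of the 48 introns. MAP4K4, a kinase of stress signalling, had 4 ciRNAs in intron 20 that all began at the same base (chr1:162086144-162086487 for the longest) and were 251, 264, 265 and 343 bases long. NCAM1, an adhesion molecule of muscle and nerve, had 4 ciRNAs in intron 13 with 1 start and lengths of 1109, 1110, 1114 and 1163 bases, with 1 or 2 reads each. MAP4K4 and NCAM1 were chosen here after their values were seen. Positions are on the duck genome that the study took from Ensembl, and the sources used here do not name its build.

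**Figure D2:**
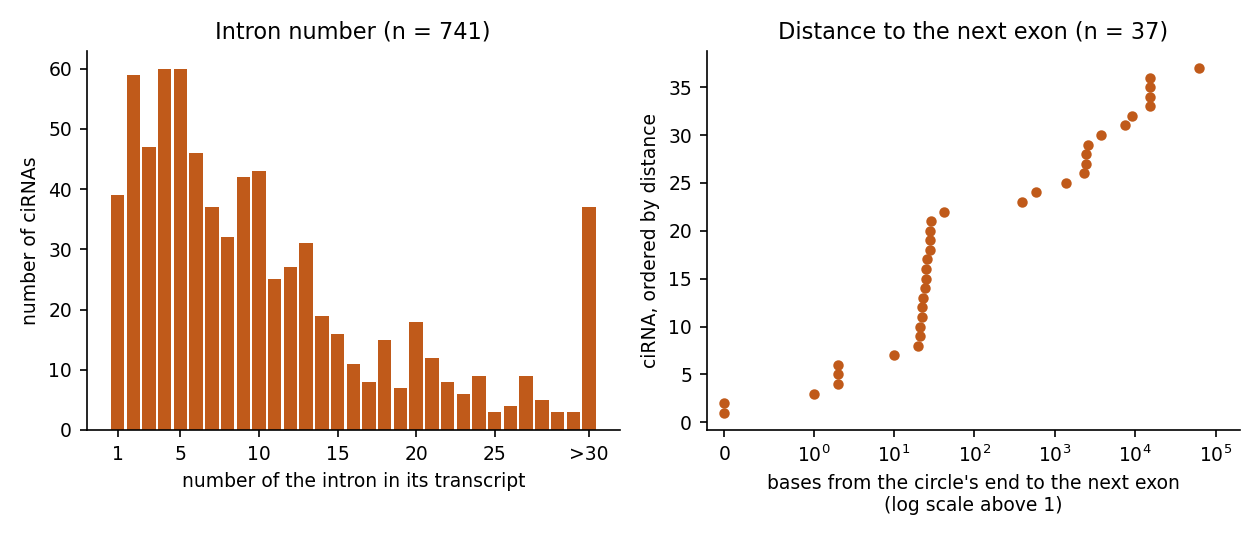
Left, number of ciRNAs by the number of their intron (all 741 numbered ciRNAs, with introns above 30 in the last bar). Right, distance in bases from the far end of the circle to the next exon for the 37 ciRNAs where that exon is known (1 point each, in order, log scale above 1), with 22 at or below 42 bases and 15 at 396 bases or more.

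The name intronic did not hold for many ciRNAs listed by position. Of the 842, 340 (40.4%) had exactly 1 end at the border of an exonic circle, 156 at its start and 184 at its end, and none had both. A circle with both ends at exon borders may be typed as exonic, so that absence is not read as a result. These 340 held 50.1% of the reads of their listing, and their median length was 11718.5 bases against 3308.5 bases for the others. In addition, 282 (33.5%) contained a whole exonic circle, and 362 (43.0%) did this or shared an end. The table gives 4080 introns beside the exonic circles of the same listing. Of the 842, 38 lay within such an intron (to 2 bases) and none of these began where the intron begins, while 203 had an end inside such an intron and ran out of it, and 123 held a whole intron. Among the numbered ciRNAs, 20 lay within a listed intron, and 17 of those began at its start. None ran out of one, and 4 held a whole one. For numbered ciRNAs, starting at an intron's start and staying inside it may be conditions of the listing. Of the 340 that shared an exon border, 165 (48.5%) had the other end inside a listed intron. Another 346 of the 842 overlapped no exonic circle, so for them the table gives no exon to compare. A single ciRNA of this listing began within 2 bases of a numbered ciRNA. This was ciRNA920 of ACTC1, the cardiac actin that embryonic skeletal muscle also makes (chr5:23274871-23275460), which matched intron 2 and had 4 reads in E19 replicate 1 and 0 elsewhere.

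CRIM1, a membrane protein that binds growth factors of the BMP family, had the most ciRNAs of any gene, 14, all listed by position on chromosome 3. They were built from 5 lower and 6 upper end positions in different combinations, were 8665 to 89677 bases long, and 9 of the 14 shared an end with an exonic circle. Together they had 70, 47 and 42 reads at E13 and 51, 65 and 31 at E19, and the stages overlapped. The 11 exonic circles of CRIM1 had 57, 17 and 34 reads at E13 and 27, 13 and 12 at E19, so the ciRNAs held 65.7% of the reads of both types. Only 3 of the 14 were present in all 6 libraries. ATXN10, an ataxin, had 8 ciRNAs with 25, 35 and 21 reads at E13 and 8, 30 and 36 at E19. Again the stages overlapped, and here the 7 exonic circles had more reads, 398 against 155.

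The 1583 ciRNAs had 1132 host genes after 370 of 665 Ensembl identifiers were matched to a symbol, and all hosts were protein-coding. Most hosts, 861 (76.1%), gave a single ciRNA, and 85 gave 3 or more. A total of 765 hosts (67.6%) also had exonic circles, 60.7% of the hosts of numbered ciRNAs and 77.1% of the hosts of those listed by position. Seen from the other side, 20.3% of the 3762 hosts of exonic circles had a ciRNA. In 151 of the 765 the ciRNAs had more reads than the exonic circles. After CRIM1, the hosts with the most ciRNAs were ANK2, an ankyrin that anchors membrane proteins to the cytoskeleton, with 11, the growth factor PDGFD with 10, and NCAM1 with 9. ATXN10 and ENSAPLG00000007002 had 8 each, and ENSAPLG00000016422, SIPA1L1, ENSAPLG00000012029, the splicing factor RBM39 and MAP4K4 had 6 each. ENSAPLG00000007002 was the only one of these 11 hosts with no exonic circle. Its 8 ciRNAs lay between positions 11975776 and 12054062 on chromosome 9, were 152 to 4295 bases long and had 57 reads in all. Both listings gave a ciRNA in only 47 hosts. RBM39 had 3 of each, with 42 ciRNA reads against 5 exonic reads, and 2 of its numbered ciRNAs lay in intron 1 with far ends 1 base apart.

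ciRNAs were found on 28 chromosomes, with 226 on chromosome 1, 201 on chromosome 2 and 156 on chromosome 3. The listings differed in where they lay. Chromosomes 9 and above, which include the small chromosomes of birds, held 46.0% of the numbered ciRNAs but 26.2% of those listed by position. For exonic circRNAs the shares were 29.1% in the numbered listing and 25.9% in the other. These are counts of molecules and were not tested.

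Genes of fixed lists were looked up by symbol. A symbol was known for the hosts of 83.1% of the numbered ciRNAs and 67.8% of those listed by position. A gene present only under an unmatched Ensembl identifier is not counted, so the counts below are lower bounds. Among 32 genes of the sarcomere and myofibre, 8 had a ciRNA and 9 had an exonic circle, with 20 ciRNAs and 116 reads. DMD, which encodes dystrophin, had 84 of these reads in 2 ciRNAs, and no other gene of the list had more than 7. ACTC1 had 4 ciRNAs with 1 read at E13 and 6 at E19, TPM1, a tropomyosin of the thin filament, had 2 with 6 reads at E13 and 1 at E19, and TNNT3, a troponin of fast muscle, had 4 with 1 read each, all at E19. ACTC1, TPM1 and TNNT3 had no exonic circle. The ciRNA reads of the whole list were 6, 0 and 10 at E13 and 26, 36 and 38 at E19, and most of the difference was DMD. Of 22 matrix genes 6 had a ciRNA, led by SPARC, a secreted protein that binds collagen, with 36 reads, and COL1A2, a chain of type I collagen, with 13 reads in E19 replicate 3 alone. Of 24 genes of RNA processing 6 had a ciRNA (19 reads, led by the helicases DDX17 with 5 and DDX5 with 4), of 20 chromatin genes 4 (9 reads, of which KMT2E had 4), and of 12 translation genes 2 (8 reads, of which EIF4A2 had 6 in 3 introns). Among 14 myogenic regulators a single gene had ciRNAs, MEF2A, a transcription factor of muscle genes, with 4 ciRNAs and 102 reads, beside 18 exonic circles with 165 reads. In these 6 lists 4 genes had enough reads to be tested as sums, and none passed.

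Of the cell type markers, the lists of 6 muscle, 6 nerve and Schwann cell, 4 fat and 4 liver markers had no ciRNA under their symbols. Markers present only under an unmatched Ensembl identifier would be missed here too. The tissue label could thus not be checked on ciRNAs. Connective tissue markers (3 of 6 with a ciRNA) had 0 reads in all E13 libraries and 2, 0 and 15 at E19. Endothelium had 3 reads of KDR in E13 replicate 1 and 1 in E19 replicate 2, and blood had 1 read of HBZ. Since the libraries are of whole muscle, fewer cells of a type and less RNA per cell cannot be told apart.

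Most ciRNAs were seen in a single embryo. In all 1225 of 1583 (77.4%) had reads in 1 library only, 91.9% of the numbered ciRNAs and 64.6% of those listed by position. For exonic circRNAs the shares were 64.0% and 52.1%. All 6 libraries held 45 ciRNAs, 44 of them listed by position, and these 44 carried 50.2% of the reads of their listing. The numbered ciRNA in all 6 libraries was ciRNA29 in intron 1 of SPARC (chr14:12913760-12913986), with 11, 1 and 1 reads at E13 and 8, 10 and 3 at E19, and no exonic circle of SPARC was listed. By stage, 504 ciRNAs were seen at E13 only, 814 at E19 only and 265 at both. Among the 258 with at least 10 reads, 196 were seen at both stages, 18 at E13 only and 44 at E19 only. The counts over all 1583 for a single stage include the 1225 seen in 1 library. Of the numbered ones, 231 were seen in E19 replicate 3 alone, against 73 to 124 for each other library. The same counts over all circular RNAs are not given here, and a difference between the stages was not tested on them.

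The number of ciRNAs seen was 380, 304 and 318 at E13 and 353, 512 and 506 at E19. The stages overlapped, with 334 ± 40.4 at E13 and 457 ± 90.1 at E19 (SD, n = 3 each, exact two-sided permutation p = 0.2, where 3 against 3 libraries cannot go below 0.1). Reads of ciRNAs were 3.96%, 3.87% and 3.81% of all back-splice reads at E13 and 3.73%, 4.19% and 4.73% at E19. E19 held both the lowest and the highest of these shares (exact permutation p = 0.4). Relative to mapped reads, there were 84.3 ± 16.3 ciRNA reads per 1000000 mapped at E13 and 115 ± 23.6 at E19 (SD, n = 3 each, exact permutation p = 0.2).

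E19 replicate 3 stood apart in the numbered ciRNAs. It held 256 of them against 86 and 150 in the other E19 libraries and 113, 119 and 102 at E13. Of the 256, 231 (90.2%) were seen nowhere else, where this share was 72.5% to 84.9% in the other 5 libraries. Their share of back-splice reads there was 0.876%, against 0.242% to 0.452% in the other 5 libraries. The ciRNAs listed by position did not show this, with 250 in E19 replicate 3, fewer than the 267 and 362 in the other E19 libraries, and 267, 185 and 216 at E13. Without E19 replicate 3 the mean number of numbered ciRNAs was 118 at E19, against 111 at E13. The library had 60046 back-splice reads, within the range of the others. The 15 reads of connective tissue markers in it are the highest of any library. Of these, 11 were of ciRNA1501 of COL1A2, which is listed by position. Only 3 ciRNAs of these markers were numbered, against the 256 numbered ciRNAs of this library. A link between the markers and the count was not tested.

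Lengths and introns did not separate the stages. The median length of the ciRNAs present was 3096, 1704 and 2345 bases at E13 and 2850, 2845 and 997.5 at E19 (exact permutation p = 0.8), the lowest being E19 replicate 3 with its many numbered ciRNAs. Within the listings, the medians were 399 to 458 bases at E13 and 419.5 to 542 at E19 for numbered ciRNAs, and 5463 to 6724 and 5921 to 6112.5 for those listed by position. The share of numbered ciRNAs in intron 1 was 7.85% ± 1.71 at E13 and 6.76% ± 2.50 at E19 (SD, n = 3 each, exact permutation p = 0.7).

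By the gene names as listed, ciRNAs whose host also showed an exonic circle in the same library were a larger share at E19. The share was 33.2%, 31.9% and 29.6% of the ciRNAs present at E13 and 41.1%, 43.4% and 38.5% at E19. All E19 libraries thus lay above all E13 libraries. The difference was 9.45 percentage points (exact permutation p = 0.1, the smallest p possible), with 9.75 points among numbered ciRNAs and 8.96 among those listed by position, without overlap in either. It shrank to 4.85 points, from 52.2% to 57.0% (exact permutation p = 0.4), when Ensembl identifiers were joined to symbols, and it was 7.98 points after thinning all libraries to the smallest number of back-splice reads.

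**Figure D3:**
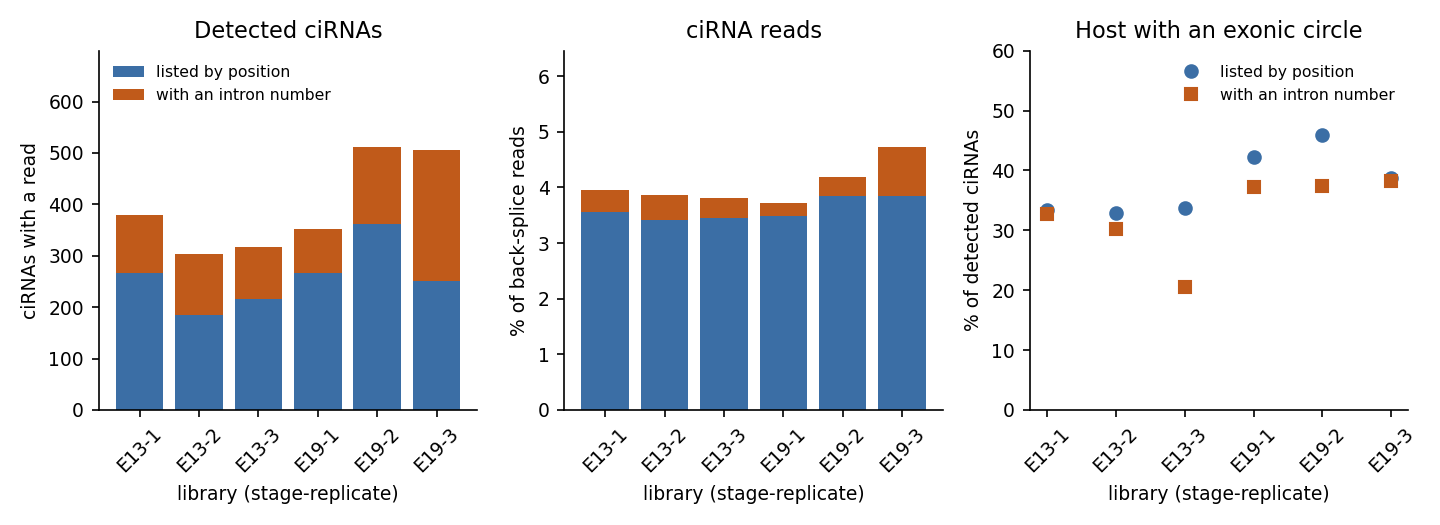
Left, ciRNAs with a read in each of the 6 libraries. Middle, their share of all back-splice reads in percent, both stacked by listing (blue, by position; orange, with an intron number). Right, share of the ciRNAs present whose host had an exonic circle in the same library, by the gene names as listed, for both listings. It was 20.6% to 33.8% at E13 and 37.2% to 45.9% at E19. E19 replicate 3 has the largest orange bars.

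ciRNAs had fewer reads on average than exonic circRNAs of the same library. A ciRNA that was present had 6.73 ± 0.915 reads on average and an exonic circRNA 12.0 ± 1.72 (SD, n = 6 libraries), and the ciRNAs were lower in 6 of 6 libraries (exact sign-flip permutation p = 0.031, the smallest that 6 libraries allow). This held inside each listing. Numbered ciRNAs had 2.07 ± 0.285 reads against 10.3 ± 1.31 for numbered exonic circRNAs, and ciRNAs listed by position 9.14 ± 0.529 against 17.2 ± 3.04 (both lower in 6 of 6, exact permutation p = 0.031). The share of molecules with a single read was 47.4% ± 6.70 for numbered ciRNAs and 25.2% ± 2.52 for numbered exonic circRNAs, higher for ciRNAs in 6 of 6 libraries (exact permutation p = 0.031). Over both listings together the order was the other way, 16.3% against 18.8% (exact permutation p = 0.16). In the position listing single reads were nearly absent from both types, 0% of ciRNAs and 0.463% of exonic circRNAs. That listing held 842 of the 1583 ciRNAs but 2864 of the 13043 exonic circRNAs. Medians lay closer than means. The median of reads summed over the 6 libraries was 3 for ciRNAs and 3 for exonic circRNAs. It was 2 against 3 in the numbered listing and 5 against 7 in the other.

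A few ciRNAs held much of the signal, and all of the 10 most abundant were listed by position. Together these 10 had 30.2% of all ciRNA reads. The most abundant was ciRNA171 of NAA16, a subunit of the enzyme complex that acetylates the start of proteins (chr1:183524086-183528218, minus strand), with 2276 reads. It had 389, 274 and 347 reads at E13 and 389, 509 and 368 at E19, which was 13.0% to 16.1% of the ciRNA reads of each library. Levels overlapped between the stages. In the authors' unit SRPBM, which scales the back-splice reads to the mapped reads of the library, its level was 90.3, 72.7 and 85.3 at E13 and 94.5, 126 and 86.8 at E19. ciRNA171 shared an end with circRNA2963, an exonic circle of NAA16, and contained it. That circle had an SRPBM of 62.2, 50.9 and 63.2 at E13 and 76.3, 106 and 79.9 at E19, below ciRNA171 in all 6 libraries.

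AMBRA1, a regulator of autophagy, gave the second and the eighth most abundant ciRNA, with a common upper end on chromosome 5. ciRNA230 (chr5:32711165-32718167) had an SRPBM of 30.7, 23.1 and 31.5 at E13 and 36.9, 51.2 and 37.0 at E19, from 863 reads. Relative to mapped reads it was higher in every E19 library than in every E13 library. The log2 change was 0.55 ± 0.39 (SE, adjusted p = 0.635, edgeR), and 0.21 with libraries scaled to their back-splice reads. ciRNA228 (chr5:32697518-32718167) had 29, 26 and 37 reads at E13 and 32, 56 and 16 at E19, with overlap. Neither overlapped an exonic circle, and the 2 exonic circles of AMBRA1 had 4 reads in all against 1062 for its 3 ciRNAs.

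Of the other 7 abundant ciRNAs, 5 overlapped between the stages, and ciRNA165 of GALNS is taken up with the comparison of the stages. ciRNA154 of CAMK2G, a kinase activated by calcium and calmodulin, had 49, 40 and 42 reads at E13 and 26, 74 and 36 at E19, and ciRNA261 of DENND5A, an activator of Rab proteins, had 48, 27 and 35 and then 45, 36 and 29. ciRNA378 of the membrane protein TSPAN4, at 474 bases the shortest of the 10, had 26, 27 and 41 reads at E13 and 37, 48 and 20 at E19. For CAMK2G and DENND5A the exonic circles were rare, with 12 reads and 1 read, against 299 and 300 for all ciRNAs of the gene. ciRNA249 and ciRNA248 of ENSAPLG00000011890 began at the same base, were 22292 and 5088 bases long and had 211 and 181 reads, ciRNA248 with 42, 27 and 38 at E13 and 21, 22 and 31 at E19. ciRNA283 of ANK2 had 19, 18 and 12 reads at E13 and 27, 47 and 25 at E19, without overlap relative to mapped reads. Its log2 change was 0.98 ± 0.59 (SE, adjusted p = 0.463, edgeR), and 0.58 with libraries scaled to their back-splice reads.

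**Figure D4:**
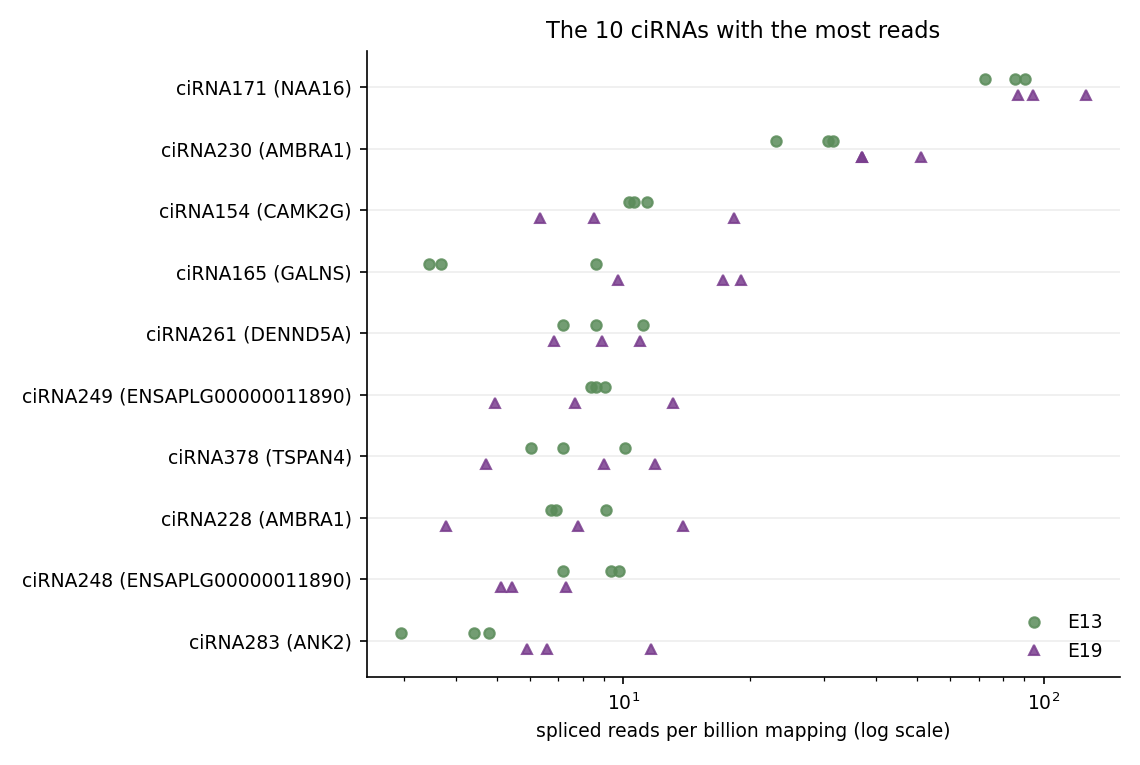
Level of the 10 ciRNAs with the most reads, in SRPBM as the authors computed it (back-splice reads scaled to mapped reads, horizontal axis, log scale), with 1 point for each library (circles, E13; triangles, E19). ciRNA171 of NAA16 lies between 72.7 and 126, and the stages are apart for ciRNA230, ciRNA165 and ciRNA283.

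The comparison of E19 with E13 could be made for 258 ciRNAs with at least 10 reads, 249 listed by position and 9 numbered, and the other 1325 were too rare. No ciRNA passed an adjusted p of 0.05 in edgeR's quasi-likelihood test, where 54 of the 4202 circular RNAs tested did (1.29%). At an unadjusted p under 0.05 there were 24 ciRNAs (9.30%), close to the 8.61% of all circular RNAs. With the thresholds of the study (absolute log2 change of at least 1 and p of at most 0.05) 19 ciRNAs were higher at E19 (7.36%, against 5.76% of all) and 5 lower (1.94%, against 2.76%). Relative to mapped reads, the libraries of the stages did not overlap for 32 ciRNAs (12.4%, against 14% of all). Of these, 29 were higher at E19 (11.2%, against 9.33% of all) and 3 lower (1.16%, against 4.66%). Overlap was not counted with libraries scaled to their back-splice reads, and here and below it refers to mapped reads. The median log2 change was 0.45 for ciRNAs and 0.26 for all circular RNAs tested, and 61.6% of ciRNAs had a change above 0, against 58.2% of all. When libraries were scaled to their back-splice reads instead, it was 0.12 for ciRNAs and -0.07 for all, and the calls at the study's thresholds were 12 higher and 6 lower. With each junction counted once, the calls among ciRNAs at the study's thresholds were 22 higher and 5 lower. A change above 0 was then seen in 61.6% of ciRNAs, against 58.0% of all. DESeq2 gave 2 calls at an adjusted p under 0.05 and limma voom gave 0.

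The ciRNAs called by DESeq2 came from GALNS, a lysosomal enzyme that breaks down sulphated sugars, and LMO7, a protein of cell junctions and of the nucleus. ciRNA165 of GALNS (chr12:19723310-19728705) had 37, 13 and 15 reads at E13 and 40, 77 and 73 at E19, with no overlap but with E13 replicate 1 close to E19 replicate 1. Its log2 change was 1.54 ± 0.51 (SE, adjusted p = 0.168 in edgeR and 0.0365 in DESeq2). It overlapped no exonic circle, and the gene's only exonic circle had 4 reads. ciRNA927 of LMO7 (chr1:179397245-179410712) had 0 reads in the E13 libraries and 4, 20 and 8 at E19. This was at least 10.4-fold higher at E19, with 3 reads over the stage as the floor at E13 (adjusted p = 0.151 in edgeR and 0.0435 in DESeq2). A second ciRNA of LMO7 with the same upper end, ciRNA293, had 7, 3 and 3 reads at E13 and 5, 25 and 12 at E19, and these overlapped.

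DMD gave the third ciRNA at the head of the E19 side. ciRNA757 (chr1:114174383-114202371), which contained an exonic circle, had 0, 0 and 9 reads at E13 and 15, 32 and 23 at E19, so the stages were apart. The log2 change was 2.89 ± 0.96 (SE, adjusted p = 0.168, edgeR). Without E13 replicate 3, the only E13 library with reads, the adjusted p was 0.0179. The next 5 by p among the ciRNAs whose E19 libraries were all higher had adjusted p of 0.391 to 0.434. ciRNA297 of TBC1D4, a protein of insulin-driven glucose uptake, had 10, 7 and 0 reads at E13 and 20, 40 and 13 at E19. ciRNA377 of ENSAPLG00000006465 had 7, 3 and 7 and then 20, 33 and 14. The remaining 3, ciRNA889 of ZNF385B, a zinc finger protein, ciRNA875 of ENSAPLG00000021170, and ciRNA892 of GYG1, the primer of glycogen synthesis, were at 0 in every E13 library and had 21 reads each at E19, at least 6.85-fold higher.

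Only 3 ciRNAs had E19 libraries below all E13 libraries. ciRNA333 of CRIM1 had 11, 6 and 6 reads at E13 and 0 in the E19 libraries, at least 7.83-fold lower (adjusted p = 0.395, edgeR). Of the other 13 ciRNAs of CRIM1, ciRNA325 and ciRNA328 were also seen at E13 only, with 3 and 6 reads in replicate 1, while ciRNA329 had 14 reads at E13 and 27 at E19 and ciRNA331 had 12 and 22. ciRNA187 of CSNK1A1, a casein kinase of Wnt signalling, had 3, 6 and 2 reads at E13 and 0 in the E19 libraries (at least 3.75-fold lower, adjusted p = 0.434, edgeR). The circRNA404 with which it shares an end had 6, 2 and 4 reads at E13 and 10, 5 and 2 at E19, and these overlapped. The third was numbered, ciRNA61 in intron 1 of PRDM11 (chr5:12064493-12065039), with 7, 2 and 11 reads at E13 and 0, 0 and 1 at E19 (log2 change -3.91 ± 2.26, SE, adjusted p = 0.434, edgeR). The other 8 numbered ciRNAs with enough reads overlapped between the stages, such as ciRNA81 of CEP85L (13, 0 and 4 reads, then 0, 3 and 5) and ciRNA51 in intron 13 of TOP1, a topoisomerase (1, 0 and 3 reads, then 0, 7 and 6).

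**Figure D5:**
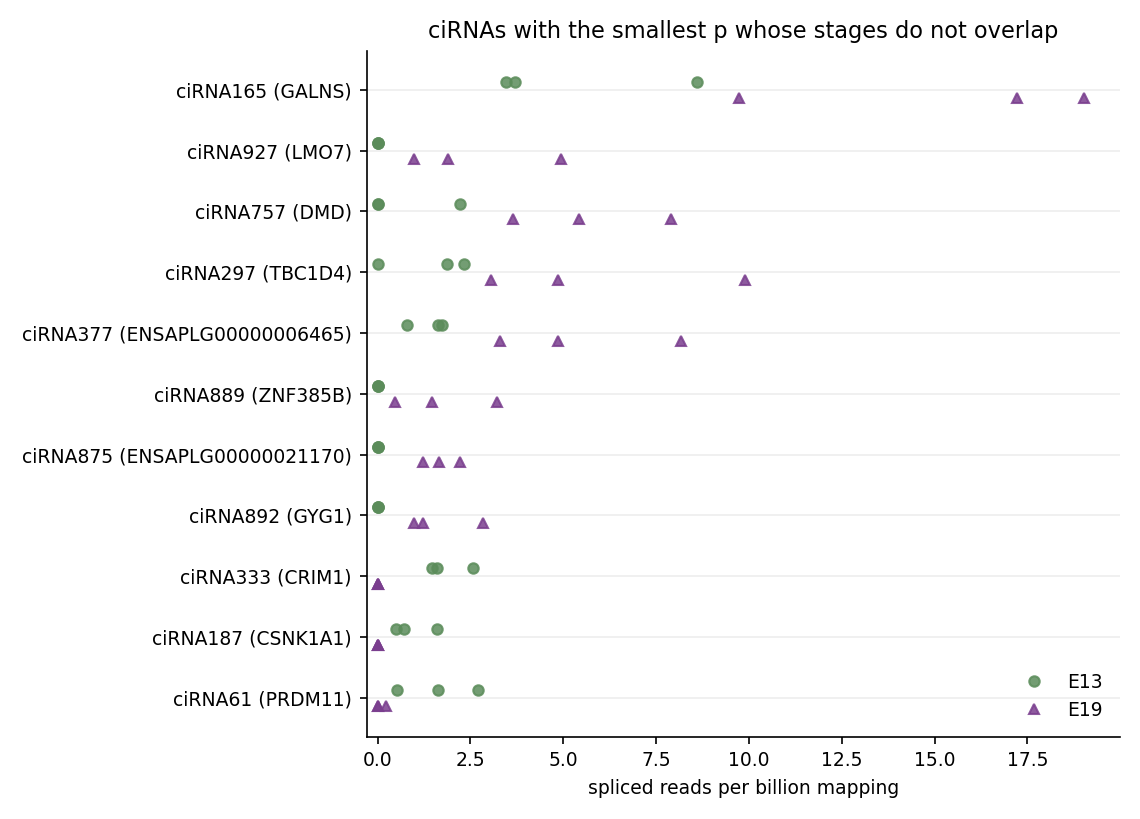
Level of 11 ciRNAs whose stages do not overlap (the 8 with the smallest p on the higher side and the 3 on the lower side), in SRPBM (back-splice reads scaled to mapped reads, horizontal axis), with 1 point for each library (circles, E13; triangles, E19). The upper 8 are higher at E19 and the lower 3 lower, and no edgeR adjusted p among them is under 0.151.

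The shortest ciRNAs with at least 10 reads were ciRNA83, numbered, of ENSAPLG00000020378 (158 bases) and ciRNA1192 and ciRNA537 of ENSAPLG00000007002 (162 and 175 bases). Reads were scattered, for instance 10, 0 and 0 at E13 and 0, 0 and 2 at E19 for ciRNA83. The longest were ciRNA296 of SEMA5A, a guidance protein of axons (129212 bases), ciRNA335 of FARS2, a mitochondrial transfer RNA synthetase (99917 bases), and ciRNA696 of TENM2, a teneurin of cell contacts (85188 bases). All of the longest shared an end with an exonic circle and contained one. ciRNA296 had 6, 0 and 2 reads at E13 and 26, 21 and 5 at E19, and circRNA4730 at the same end had 9, 12 and 19 and then 47, 29 and 26. The exonic circle did not overlap between the stages, while the ciRNA did.

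When the ciRNA reads of a gene were summed, 222 sums could be tested and 1 passed an adjusted p of 0.05, against 38 of the 2388 sums over genes and types (1.59%). At an unadjusted p under 0.05 there were 27 (12.2%, against 10.7% of all sums), and at the study's thresholds 22 higher (9.91%, against 6.95%) and 5 lower (2.25%, against 3.27%). The sum that passed was that of ZNF385B on chromosome 7, with 0 reads in the E13 libraries and 15, 28 and 12 in those of E19, an increase of at least 17.9-fold (adjusted p = 0.00921 in edgeR). It joined 4 ciRNAs, which were ciRNA889 (6, 13 and 2 reads at E19), ciRNA890 (9, 12 and 0), ciRNA1528 (0, 0 and 10) and ciRNA1172 (0, 3 and 0). All 4 shared an end with an exonic circle of ZNF385B and contained one, so none of them is a circle of a single intron by this table. The 5 exonic circles of the gene had 67, 39 and 42 reads at E13 and 224, 283 and 104 at E19. With each junction counted once their log2 change was 2.04 (adjusted p = 0.00348, edgeR), so both types were higher at E19, and ciRNAs made up 6.76% of the reads. The call for the ciRNA sum was lost when E13 replicate 1, 2 or 3 or E19 replicate 2 was left out, with adjusted p of 0.0566, 0.0852, 0.0643 and 0.284.

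The next sums on the E19 side did not pass. ENSAPLG00000012029 had 2, 2 and 0 ciRNA reads at E13 and 0, 38 and 28 at E19 (log2 change 3.90 ± 1.18, SE, adjusted p = 0.0924, edgeR), with E19 replicate 1 at 0. GALNS (adjusted p = 0.0962) and DMD (0.121, edgeR) rest on the ciRNAs described above. SEMA5A had 6, 0 and 2 reads at E13 and 29, 32 and 9 at E19, without overlap (log2 change 3.09 ± 0.95, SE, adjusted p = 0.10, edgeR). SGCZ, a sarcoglycan of the complex around dystrophin, had 0 reads in the E13 libraries and 0, 4 and 31 at E19 (adjusted p = 0.143, edgeR), so a single library carried most of them. On the E13 side the 6 sums with the smallest p had adjusted p of 0.243 to 0.440. ENSAPLG00000013046 had 28 reads in E13 replicate 3 and 0 in all other libraries, and KLHL29, ENSAPLG00000012813 and ENSAPLG00000003475 had reads in E13 replicates 1 and 3 only. RYR2, a calcium release channel, had 9 and 8 reads in E13 replicates 1 and 2 and 0 elsewhere. Of these 6 only the sum of CSNK1A1 had reads in all E13 libraries.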

How the data were processed

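Reads were trimmed with Cutadapt, mapped with Bowtie and TopHat2 to the Ensembl duck genome, and back-splice junctions were called with TopHat-Fusion, CIRCexplorer2 and CIRI by the authors (versions and build not given in the sources used here), with at least 1 junction read. The deposited counts are back-splice reads without normalization. The signal, SRPBM (back-splice reads scaled to the mapped reads), was made by the authors by dividing the counts by a constant per library. Their own fold changes and p-values were not used. A second deposited table of counts, in which 6 ciRNAs differ, served as an alternative.

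Stages were compared with edgeR 4.0.16 (quasi-likelihood, R 4.3.3), with the study's mapped reads as library size, on molecules with at least 10 reads over 6 libraries and with Benjamini-Hochberg adjustment over all circular RNAs or over all sums by gene name and type. The SE is the absolute log2 change divided by the square root of F. Values per library were compared by exact permutation, and a stage at 0 was given 3 reads as a floor. Counts were also simulated for circular RNAs of all types, with a fixed spread between libraries that was not estimated from the data. Among molecules of any type, 57 of 100 changed 8-fold and 10 of 100 changed 4-fold were called, with 1 false call among 4077. How many changed ciRNAs would be called was not simulated apart. Alternatives were DESeq2 1.42.0, limma 3.58.1, other scaling, filters, libraries and listings.

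Named ciRNAs are the 10 with the most reads, at most 8 per direction with the smallest p and no overlap, and the 3 shortest and longest with at least 10 reads. Named hosts are the 10 with the most ciRNAs, the 6 with the smallest p per direction, and up to 4 members of a list by reads. Others were chosen after their values were seen. Members, lists and rules were chosen with earlier results of these data known. Host symbols come from shared junctions, transcripts or HGNC entries. Starts of ciRNAs listed by position were raised by 1 base to count from 1. Lengths of numbered ciRNAs can be 1 base short. Sequences were not used here.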

Additional observations from a re-analysis of the deposited data

How the results depend on the processing

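Most ciRNAs have few reads in few libraries, so the tests reach only the abundant ones, and a molecule absent from a library was not detectable at that depth. No ciRNA passed an adjusted p of 0.05 in edgeR, and the count was 0 under every other scaling, filter and table, with 2 in DESeq2 and 0 to 1 when a library was left out. At the study's thresholds the main counts were 19 higher and 5 lower at E19. There were 28 higher in limma voom, 26 with no filter beyond 1 read and 12 with total back-splice reads. With at least 20 reads there was 1 lower. With a library left out there were 3 to 22 higher and 2 to 5 lower, the fewest without E19 replicate 2 (3 and 3). In fits within a listing, chosen after seeing the data, there were 0 higher and 0 lower of 9 numbered ciRNAs, and 3 lower of 249 listed by position. For the sums by gene, 1 called, there were 2 calls with no filter beyond 1 read and 0 to 2 with a library left out. At the study's thresholds there were 22 higher and 5 lower sums, which became 13 and 8 when libraries were scaled to back-splice reads, 1 lower with at least 20 reads, and 8 to 24 higher and 1 to 4 lower with a library left out.

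The replicate numbers did not pair the libraries (correlations of same-numbered libraries of -0.06, -0.03 and -0.02). With the replicate number as a block there were 0 ciRNA calls, 11 higher and 0 lower at the study's thresholds, 2 calls among the sums and 0 lower sums.

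The stage difference in median length, -151 bases, was 35.8 bases among numbered ciRNAs, 206 without E13 replicate 1 and 466 without E19 replicate 3, with a range of -490 to 466 when a library was left out. That in the share of intron 1, -1.10 points, ranged from -2.37 to 0.13, the highest without E19 replicate 3. The difference in mean reads from exonic circRNAs, -5.32, stayed between -5.63 and -4.96 with a library left out, where 5 libraries cannot go below an exact permutation p of 0.0625. The difference in the share with a single read, -2.54 points, was 22.3 points within the numbered listing, chosen after seeing the data. Over all ciRNAs, the stage differences in the share of back-splice reads, reads per mapped read, number seen and share with an exonic circle of the host kept their direction under all alternatives run. Among numbered ciRNAs alone, the difference in the share of back-splice reads, 0.0832 points, was -0.110 without E19 replicate 3. For the named ciRNAs and sums with a test, 343 of the alternative values kept direction and side of the threshold, 7 newly passed and 4 no longer passed. These items were chosen from the same counts, so a kept direction is no separate support. Only the sum of ZNF385B passed in the main fit, so most of the 343 did not pass in either fit. The 4 that no longer passed are of this sum, which passed in 11 of 15 alternatives.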

Other observations

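The study states that splice sites lay under 100 kb apart, and 10 ciRNAs were longer than this, 9 listed by position and 1 numbered. The numbered one was ciRNA86 of SMARCC1, a subunit of a chromatin remodelling complex, with 122655 bases and 1 read in E13 replicate 1. Its lower coordinate, which is its far end on the minus strand, was that of ciRNA85 of the same gene (chr2:1563163-1564426), which was 1263 bases long. Both were given as intron 10, but of different transcripts.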
